A study of Mus musculus with 8 samples.

Results

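PICALM84, written here as line 84, is a hematopoietic cell line whose expression stood apart from that of 3 lines made in the same way, PICALM6A, PICALM6B and PICALM6D, written here as 6A, 6B and 6D. Its arrays were chosen by the line name, which was singled out because the measured log2 levels of these 8 arrays were already known to differ between it and the others. It contributes 2 of the 8 arrays of the series, and the other 3 lines contribute 6. All 4 lines lacked endogenous Picalm, which encodes a clathrin assembly protein. They were grown from embryonic day 14 fetal liver cells of Picalm fit1-5R embryos on the B6(Cg)-TyrC-2J/J background. The cells were immortalized with the leukemia fusion gene MLL-ENL, delivered by retrovirus, and kept in interleukin-3 at 5 ng/ml and stem cell factor at 50 ng/ml. Each line gave 1 array of cells with the empty MSCVneo vector (knockout) and 1 array of cells with human PICALM in that vector (rescued). The 4 groups are therefore line 84 knockout (n = 1), line 84 rescued (n = 1), other lines knockout (n = 3) and other lines rescued (n = 3). Line 84 is a single immortalized line, so whatever belongs to that line cannot be told apart from anything else in which it differs, the sex of its embryo included. The labels give no sex, age of the culture or scan batch.

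Values are log2 levels after robust multi-array averaging (RMA), so a difference of 1 is a 2-fold difference in signal. A probe set, the group of array probes that reads a transcript, was called apart where both arrays of line 84 lay beyond all 6 other arrays and the difference of means was at least 1. The difference is the mean of line 84 minus the mean of the other lines, with the vector as a covariate, and its standard error (SE) comes from limma, a linear model fitted to all 22626 probe sets. This SE takes the 8 arrays as independent. It describes scatter between arrays and not the uncertainty of a difference between lines. Because these values also singled out the line, differences between line 84 and the other lines are descriptions and no test of them is given. For each gene the probe set with the highest mean over the 8 arrays was used, which gave 12393 genes.

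Type I interferons are secreted alarm signals of infected cells. They bind a shared receptor whose kinases activate a transcription factor complex that includes Irf9, and this complex switches on antiviral genes through the interferon-stimulated response element (ISRE) in their promoters. In blood formation the same progenitors can yield neutrophils, monocytes, mast cells, basophils, eosinophils, red cells or platelets, and each path has its own granule proteins and transcription factors. Xist is the RNA that coats the inactive X chromosome in female cells, whereas Eif2s3y, Kdm5d and Uty lie on the Y chromosome.

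Promoter sequences that hold letters like the ISRE are shown first, for interferon effector and GTPase genes that were higher in line 84. The letters were not used to choose the line, but the genes were taken from interferon lists and by their levels. The motif is therefore no separate support for a difference in line 84. Sequences were from RefSeq promoters of build GRCm38.p6, printed on the strand of the gene and upstream of its start. Capitals mark every match to GAAANNGAAA or to its reverse complement TTTCNNTTTC, which includes overlapping matches.
Rsad2, chr12:26456528-26456607, minus strand: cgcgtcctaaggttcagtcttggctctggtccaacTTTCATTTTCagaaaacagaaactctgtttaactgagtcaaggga
Slfn8, chr11:83020814-83020893, minus strand: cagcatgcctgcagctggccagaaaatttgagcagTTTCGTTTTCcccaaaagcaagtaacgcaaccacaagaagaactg
Ifit1, chr19:34640750-34640829, plus strand: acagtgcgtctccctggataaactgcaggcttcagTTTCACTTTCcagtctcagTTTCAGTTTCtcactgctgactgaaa
Oas3, chr5:120777690-120777769, minus strand: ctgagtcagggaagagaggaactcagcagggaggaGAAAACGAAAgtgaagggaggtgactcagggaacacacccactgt
Bst2, chr8:71537552-71537631, minus strand: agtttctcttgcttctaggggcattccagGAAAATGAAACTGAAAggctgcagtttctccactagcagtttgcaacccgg
Irgm2, chr11:58214878-58214957, plus strand: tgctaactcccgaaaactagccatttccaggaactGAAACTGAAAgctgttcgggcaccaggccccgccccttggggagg

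The motif was looked for on both strands from 250 bases before to 50 bases after the gene start. Of 31 interferon effector and GTPase genes called apart, 25 had a promoter in the table and 14 of these held the motif (56%). It was in 7 of 22 promoters of the members of these lists that were not called apart (31.8%). Of the genes called apart and higher in line 84 that were outside these lists, 8 of 189 held it (4.23%), and of those called apart and lower, 11 of 210 (5.24%). Genes outside these lists still include interferon-responsive genes of other lists, such as Usp18, Irf7 and Irf9. Over all measured genes the share was 3.85%, and over all 32851 promoters of the table it was 3.44%. A match is a description of these letters and no evidence of binding.

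Line 84 was far from the other 3 lines, which were close to each other. Of 22626 probe sets, 441 (1.95%) were apart and higher in line 84 and 385 (1.7%) apart and lower, together 826 (3.65%). Over genes, 276 (2.23%) were higher and 260 (2.1%) lower. The number of probe sets with line means at least 2-fold apart was 862 to 926 between line 84 and each other line, against 53 to 82 between any pair of the other lines. The arrays of the other lines correlated at 0.995 to 0.998, and those of line 84 correlated with them at 0.970 to 0.985. Just past the 2-fold limit lay Ccdc84 (1.001) and Hip1 (-1.001), and just short of it Pcgf6 (0.998) and Mmp19 (-0.997).

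**Figure D1:**
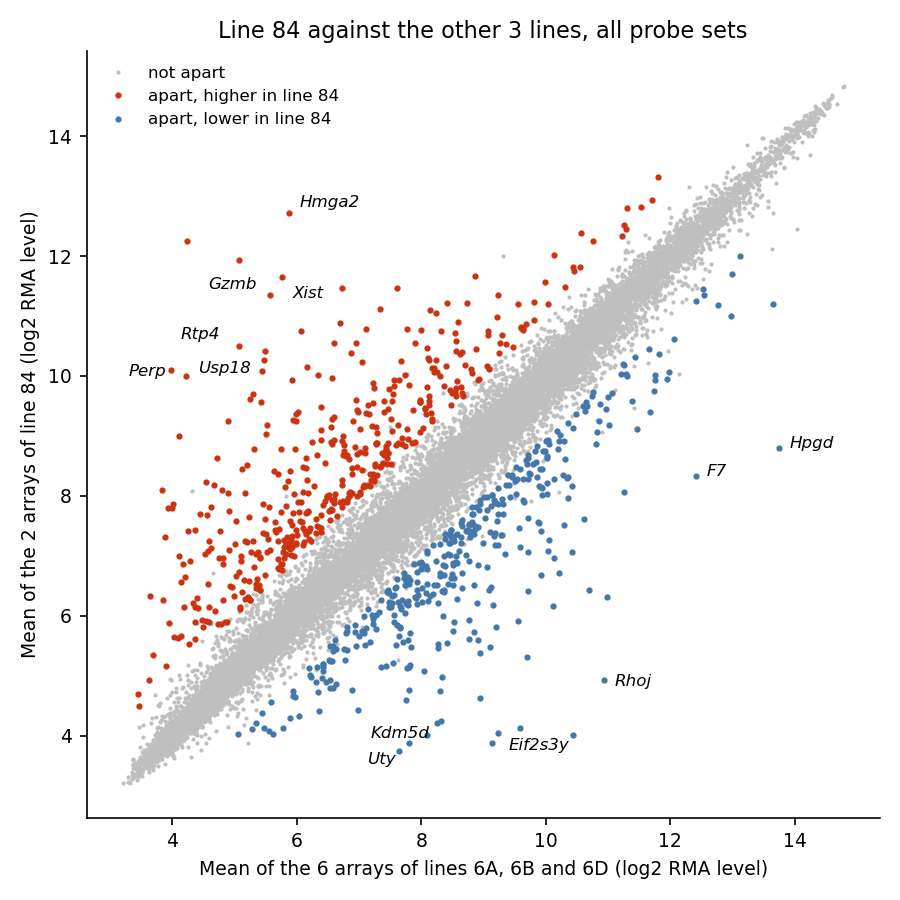
Mean log2 RMA level of each probe set in the 6 arrays of lines 6A, 6B and 6D (x axis) against that in the 2 arrays of line 84 (y axis), with the 441 probe sets apart and higher in red and the 385 apart and lower in blue. Names mark genes at the probe set used for them. Most points lie along the diagonal, and the named genes lie 4 or more log2 units off it, except Uty (-3.92).

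The sex-linked genes were among the largest differences, and they split line 84 from the others without overlap. Xist was at 11.65 in the knockout and 11.64 in the rescued array of line 84, against 5.62 to 5.89 (median 5.76) in the other 6 arrays, a difference of 5.88 (SE 0.06). Eif2s3y, a translation factor subunit encoded on the Y chromosome, was at 3.97 and 4.10 in line 84 and at 8.12 to 10.09 (median 9.37) elsewhere. Kdm5d, a histone demethylase, was at 4.33 and 4.16 against 8.05 to 8.48, and Uty, the Y-linked counterpart of Kdm6a, at 3.94 and 3.81 against 7.40 to 8.18. In line 84 these Y-linked levels were among the dimmest of the array, with 2.10% to 7.63% of all probe sets below them. Kdm5d had 3 probe sets, with differences of -4.08 to 0.12, so not all its probes split the lines. Usp9y, Zfy2 and Sry, further Y-linked genes, differed by 0.03 to 0.05.

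Genes of the X chromosome that are known to be expressed from the inactive X as well were modestly higher in line 84. Kdm6a, another histone demethylase, was at 10.06 and 9.99 against 9.13 to 9.26, a difference of 0.83 (SE 0.05). Kdm5c differed by 0.61 and Eif2s3x by 0.51, again without overlap, whereas Ddx3x differed by -0.08. None of these 4 reached the 2-fold limit. Lying above all 6 other arrays was common, at 38.6% of all genes for the knockout array of line 84 and 33.1% for its rescued array. Over 402 X-linked genes the median difference was 0.01, near the 0.04 of all genes, so the X chromosome was not shifted as a whole.

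Apart from the sex-linked genes, the largest differences belonged to genes of many kinds. Hmga2, a chromatin protein of fetal and self-renewing cells, was at 12.85 and 12.58 in line 84 and at 5.59 to 6.29 (median 5.83) elsewhere, a difference of 6.84 (SE 0.17), with 3 probe sets from 6.84 to 8.0. Perp, a membrane protein of cell junctions and a p53 target, was at 9.90 and 10.09 against 3.98 to 4.68. Gzmb, a protease of cytotoxic and some mast cells, was at 11.72 and 10.98 against 4.70 to 7.22. These genes were dim in most other arrays and among the brighter ones in line 84. The rest of the 15 largest higher differences were those of Rab38, Scin, Gem, Spns2 and Clnk (3.85 to 4.73), together with interferon and mast cell genes taken up later.

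On the lower side, Rhoj, a small GTPase, was at 4.92 and 4.95 in line 84 and at 10.68 to 11.13 (median 10.95) elsewhere, a difference of -6.01 (SE 0.09). Hpgd, which inactivates prostaglandins, was at 8.84 and 8.74 against 13.68 to 13.83. Both were tightly held within each set of lines, at a high level in the other 3. F7, a coagulation factor, was at 8.10 and 8.57 against 11.92 to 12.72. Hnmt, which degrades histamine, Thbd, which encodes thrombomodulin, Penk, an opioid precursor, and Cd302, Tctex1d1, Camk1 and Gstm2 differed by -3.36 to -4.28. Elavl2, which encodes a neuronal RNA-binding protein, was lower by 4.32 in the mean (difference -4.32, SE 1.67), but line 6B was also low at 5.33 and 6.07, where 6A and 6D were at 10.31 to 10.92. Scgb1a1, a secreted airway protein, was at 4.55 in the knockout and 8.06 in the rescued array of line 84, against 8.75 to 12.82 elsewhere, so its range within line 84 was wide.

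**Figure D2:**
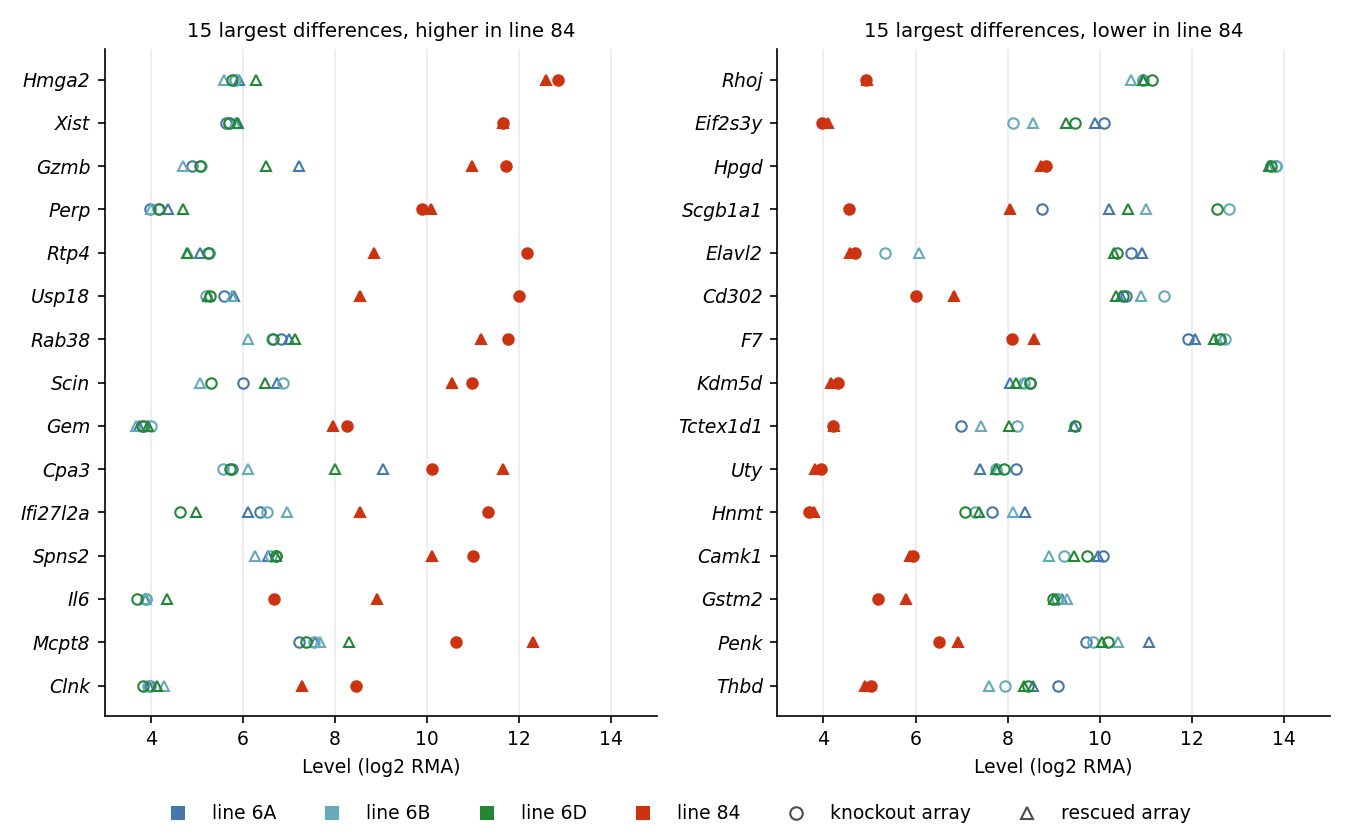
Log2 RMA level (x axis) in each of the 8 arrays for the 15 genes with the largest difference in each direction, with circles for knockout and triangles for rescued arrays and filled red symbols for line 84. Symbols of line 84 lie outside the range of the other lines for every gene shown, as the choice of genes requires, and Elavl2 in line 6B lies near line 84.

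Interferon-responsive genes formed the list with the most members apart. Of 41 measured interferon effectors, 25 were apart and higher in line 84 and 0 lower, against 2.23% and 2.1% of all genes, and the median difference was 1.42 against 0.04 for all genes. The list mean was 10.27 in the knockout array of line 84, 8.70 in its rescued array and 7.72 to 7.93 in the other 6 arrays. The knockout array of line 84 was above all 6 other arrays for 40 of the 41 genes, and its rescued array for 33. The same held for 38.6% and 33.1% of all genes. With the rescued arrays alone the median was 0.65, and with the knockout arrays alone 2.07.

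The signals and receptors at the head of the pathway were not apart. The 9 interferon genes measured, Ifnb1, Ifng and members of the Ifna family, were at 3.48 to 6.17 in all arrays and differed by -0.12 to 0.21. The ligand list also held the cytokines Il6, Tnf and Il15, of which Il6 was apart. Of 8 receptors and kinases 0 were apart. Ifnar1, a chain of the type I receptor, differed by -0.16 and Ifnar2 by -0.22, and the kinase Tyk2 by -0.08. The kinase Jak1 was at 10.70 and 10.58 against 10.53 to 10.74. Of 12 transcription factors, 2 were apart. Irf7, which amplifies interferon induction and is itself induced, was at 9.90 and 7.47 in line 84 against 6.55 to 6.98, a difference of 1.87 (SE 0.43). Irf9, the DNA-binding part of the interferon-activated complex, was at 9.74 and 8.82 against 7.08 to 7.72. Its partner Stat2 differed by 0.36 and Irf1 by 0.84. The median of the factors was 0.12 and turned to -0.03 with the rescued arrays alone.

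The effectors showed the largest differences. Rtp4, a receptor-trafficking protein induced by interferon, was at 12.18 in the knockout and 8.84 in the rescued array of line 84 and at 4.79 to 5.26 (median 5.15) elsewhere, a difference of 5.44 (SE 0.54). A second probe set of Rtp4 differed by only 0.52. Rsad2, which encodes viperin, an enzyme that makes a chain terminator of viral RNA, was at 11.55 and 8.49 against 6.22 to 6.44. Oasl2, of the oligoadenylate synthetase family, was at 9.49 and 6.10 against 3.90 to 4.09, and Ifit1, which binds viral RNA ends, at 9.07 and 5.76 against 4.14 to 4.35. In each of these genes the other 6 arrays lay within 0.5 of each other, the knockout array of line 84 was highest, and its rescued array lay between. Ifi27l2a (4.0), Ifitm6 (3.67), Epsti1 (3.60), Oas2 (3.27), Lgals3bp (2.31), Mx1 (2.22), Isg20 (2.16), Oas1a (2.11) and Oas3 (2.10) were also apart, the values being differences in log2 level.

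Of 18 interferon-induced GTPases and Ifi200 genes, 6 were apart and higher and the median was 0.98. Slfn8 was at 10.17 and 7.39 in line 84 against 5.23 to 5.42, and the interferon-induced GTPases Igtp and Irgm2 differed by 1.57 and 1.58. Of 17 sensors of foreign nucleic acid, 4 were apart, namely Zbp1 (2.36), Ifi204 (1.88), Dhx58 (1.72) and Ddx60 (1.53). Among 12 feedback inhibitors, Usp18, which removes Isg15 from proteins and blocks the receptor, was at 11.99 and 8.53 against 5.19 to 5.80. Adar, an RNA-editing enzyme, differed by 1.03, and the other 10 inhibitors were not apart. Of 19 genes of MHC class I presentation 2 were apart, the peptide transporter Tap1 (1.33) and the proteasome subunit Psmb9 (1.19), and of 10 class II genes 0. The 5 genes whose levels over the 8 arrays followed the effector mean most closely were Trim30d (r = 0.996), Psme1 (0.995), Cxcl10, AW112010 and Slfn8 (0.994 each). These correlations are descriptions, and they rest on the 2 arrays of line 84.

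**Figure D3:**
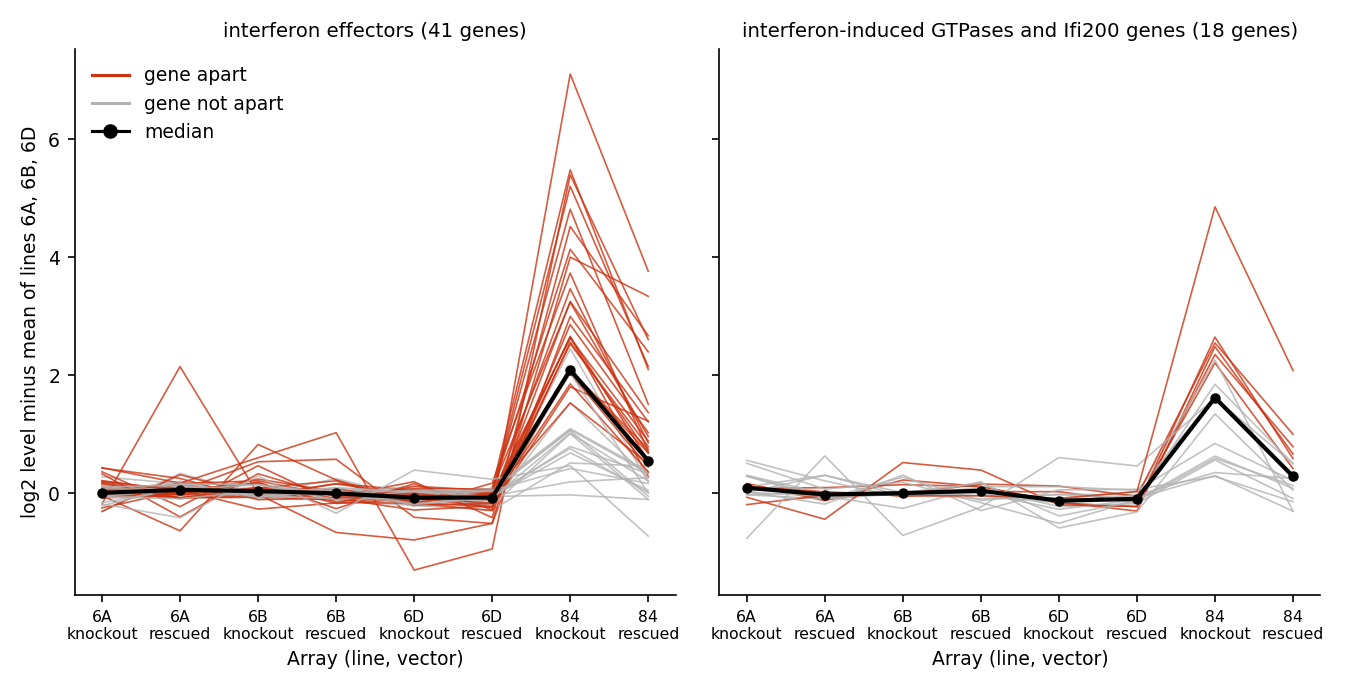
Log2 level minus the mean of the 6 arrays of lines 6A, 6B and 6D (y axis) for each member of 2 interferon lists across the 8 arrays (x axis), with a line per gene and the median in black. The medians stay near 0 in the 6 arrays of the other lines, peak in the knockout array of line 84 and are lower in its rescued array.

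Chemokines that interferon and inflammatory signals induce were part of a list of 34 cytokines and chemokines with 6 apart and higher and 0 lower (median 0.11). Ccl5 was at 9.37 and 7.46 in line 84 against 5.42 to 5.81. Ccl2, which attracts monocytes, was at 9.37 and 6.4 against 5.82 to 6.20, and Ccl7 and Ccl12 differed by 1.30 and 1.40. Csf1, the growth factor of macrophages, differed by 1.54. Il6 was at 6.67 and 8.91 against 3.70 to 4.36 and, unlike the chemokines, was higher in the rescued array.

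In most lineage lists a minority of members was apart, more often lower among neutrophil and monocyte genes and more often higher among mast cell, eosinophil, red cell, platelet and progenitor genes. The counts stand against 2.23% of all genes apart and higher and 2.1% apart and lower. The lists share members, so their counts are not separate results. Gata1 counts among eosinophil genes, erythroid genes and transcription factors, and Il6 among mast cell genes, ligands and cytokines. In bulk RNA, a smaller number of cells of a type and less RNA per cell cannot be told apart. The pan-leukocyte gene Ptprc was at 12.22 and 12.31 in line 84 against 12.40 to 12.54. Of 20 hepatocyte and liver stroma genes 1 was apart, Pecam1 (1.10), which blood cells express too.

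Some neutrophil genes were lower in line 84, mainly in its knockout array. Of 16 azurophil granule and promyelocyte genes, 5 were apart and lower and 1 higher (median -0.41). Elane, neutrophil elastase, was at 9.91 and 12.48 in line 84 against 13.26 to 13.85 (median 13.74). Cst7 (-2.0), Gstm1 (-1.45), Gfi1 (-1.07), a repressor needed for neutrophil formation, and Igsf6 (-1.04) were the other lower members. Nkg7, a protein of cytotoxic granules, was the higher member, at 10.91 and 11.32 against 7.01 to 7.88. The azurophil protease and peroxidase genes Mpo, Prtn3 and Ctsg were not apart. They differed by -0.06, -0.44 and -0.32 between knockout arrays and by 0.02, -0.10 and -0.06 between rescued arrays. Of the 16 genes, 3 had a difference above 0. The median was -0.85 with the knockout arrays alone and -0.15 with the rescued arrays alone.

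Of 23 genes of secondary and tertiary granules, which appear late in neutrophil maturation, 4 were apart and lower and 1 higher (median -0.89, and -0.28 with the rescued arrays alone). Cd177 was at 4.81 and 5.48 against 6.09 to 9.73, and Fpr2, a receptor for formyl peptides, differed by -1.92. S100a8 and Chil3 were low only in the knockout array, at 10.95 and 7.21 against 13.64 to 14.38 and 11.31 to 13.03, and within the other arrays' range in the rescued array. Padi4, which citrullinates histones, was higher, at 8.66 and 9.41 against 5.05 to 6.45. The list also holds genes of receptors, such as Fpr2 and Cxcr2. Genes of granule proteins went both ways. Camp, Ngp and Lcn2 differed by -1.54, -1.95 and -1.41 between knockout arrays and by -0.99, -0.73 and -0.54 between rescued arrays. Ltf, Mmp8 and Mmp9 differed by 0.50, 0.33 and 0.37 between knockout arrays and by -0.68, 0.71 and 0.03 between rescued arrays. Of the 23 genes, 7 had a difference above 0. These included Cxcr2 and Pglyrp1, which were not apart. They were higher by 0.96 and 1.13 between knockout arrays and by 0.90 and 0.69 between rescued arrays. Of 29 monocyte and macrophage genes, 5 were apart and lower and 2 higher (median -0.30). Klf4, a transcription factor of monocytes, was at 5.74 and 8.38 against 8.99 to 10.13, followed by Mrc1 (-1.65), Cd14 (-1.29), Marco (-1.12) and Cd68 (-1.09). C1qc and Cx3cr1 were the higher members, by 1.04 and 1.01.

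Mast cell and basophil genes were higher in a subset. Of 29 measured, 6 were apart and higher and 0 lower, with a median of 0.26. Cpa3, the mast cell carboxypeptidase, was at 10.11 and 11.65 in line 84 against 5.55 to 9.04 (median 5.93), where the highest of the other arrays were the rescued arrays of 6A (9.04) and 6D (8.0). Mcpt8, a basophil protease, was at 10.64 and 12.30 against 7.22 to 8.31. Hdc, which makes histamine, was at 8.88 and 11.58 against 5.77 to 7.79, and Gata2, a transcription factor of stem and mast cells, at 10.65 and 10.88 against 7.65 to 8.30. Kit, the receptor for stem cell factor, differed by 1.17. The IgE receptor chains Fcer1a (1.11) and Ms4a2 (1.07) differed as much but their arrays overlapped. Il6, a cytokine, was the other member apart. The further protease genes Cma1, Mcpt1, Mcpt2, Mcpt4, Tpsb2, Tpsab1 and Tpsg1 were not apart. They differed by -0.13 to 0.90 within each vector. Mitf and Csf2rb were not apart either, at -0.26 and -0.56 between knockout arrays and -0.21 and -0.31 between rescued arrays.

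The eosinophil granule genes Epx, Prg2 and Prg3 were high in the rescued array of line 84 and near the level of the other lines in its knockout array. Epx, eosinophil peroxidase, was at 4.78 in the knockout and 8.66 in the rescued array, against 4.54 to 4.94 elsewhere. Prg2, the major basic protein, was at 5.30 and 10.87 against 3.93 to 5.74, and Prg3, its homolog, at 5.89 and 9.32 against 5.40 to 5.59. Of 9 eosinophil genes, 3 were apart and higher and 0 lower. Besides Prg3 these were Siglecf, a surface lectin, at 8.37 and 8.60 against 5.52 to 6.49, and Gata1, a transcription factor of eosinophils and red cells, at 6.67 and 7.46 against 5.15 to 5.38. The median of 1.81 rested on the rescued array, since it was 0.44 with the knockout arrays alone and 2.16 with the rescued arrays alone.

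Several red cell and platelet genes were higher, and no measured globin was apart. Of 24 erythroid genes 7 were apart and higher and 0 lower (median 0.32). Hemgn, a nuclear protein of erythroid precursors, was at 8.29 and 6.35 against 3.49 to 4.05, and Tal1, a transcription factor of stem cells and red cell precursors, at 9.18 and 8.63 against 5.78 to 6.76. Car2 (2.19), Gfi1b (1.98), Gata1 (1.81), Klf1 (1.56) and Car1 (1.55) were the other members apart. Of 20 megakaryocyte and platelet genes, 5 were apart and higher and 2 lower (median 0.17). Itga2b, the platelet integrin chain also found on progenitors, was at 10.09 and 9.5 against 6.86 to 7.52, and the platelet chemokines Pf4 and Ppbp differed by 1.73 and 1.72. Vwf and Gng11 were the lower members, by 1.62 and 1.66 in size (differences -1.62 and -1.66).

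Stem and progenitor genes included 8 apart and higher and 1 lower of 34 (median 0.16). Cd27, a co-stimulatory receptor of early progenitors, was at 8.95 and 7.24 against 4.66 to 5.12. Sox4, Flt3, Cd34 and Angpt1 differed by 1.88, 1.87, 1.56 and 1.19. Gata2, Kit and Gfi1b were the other higher members, and they also count in the mast cell or erythroid lists. For Cd34 and Sox4 the rescued array of every line was below its knockout array, and line 84 stayed above all other arrays in both. Hoxa10, a homeobox gene that MLL fusions activate, was the lower member (-1.25). Among 35 Hox genes and MLL fusion targets 2 were higher and 1 lower, with a median of 0.08, and Prom1, the progenitor marker CD133, was at 6.29 and 9.83 against 9.57 to 10.74, not apart.

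The remaining lists had few members apart. In most of them the share in at least 1 direction was nevertheless above that of all genes (2.23% higher and 2.1% lower). Of the integrins and adhesion genes 13.8% were apart and higher, and of the pattern and Fc receptors 11.5% apart and lower. Where a list had 1 member apart, its share rests on that gene. Of 43 hematopoietic transcription factors 6 were higher and 4 lower, with Ets1 (-2.82) and Klf2 (-1.37) among the lower. Of 38 cytokine receptors 2 were higher and 3 lower, the lower being Csf2ra (-1.61), Il13ra1 (-1.19) and Il6st (-1.11). In 26 pattern and Fc receptors 0 were higher and 3 lower, and in 29 integrins and adhesion genes 4 were higher and 1 lower. Of 15 dendritic cell genes Flt3 and Bst2 were higher. Of 21 T and NK genes Gzmb alone was higher, and of 21 B lineage genes Ighm alone was apart (-1.91). In 22 genes of the p53 pathway, Perp and Cdkn2a (1.34) were higher and Fas (-1.45) and Zmat3 (-1.32) lower. The median of this list, 0.11, turned to -0.03 with the rescued arrays alone.

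Of 32 genes of clathrin-mediated endocytosis, the process in which Picalm acts, Hip1r was higher (1.33) and Dab2 (-1.23), Bin1 (-1.03) and Hip1 (-1.001) lower. Of 18 genes of cholesterol synthesis 1 was apart and lower, Tm7sf2 (-1.23), with a median of -0.29. The knockout array of line 84 was below all 6 other arrays for 17 of the 18, and its rescued array for 4. Over all genes these shares were 27.2% and 24.2%, so the count for the rescued array was near the background. Of 20 imprinted genes Grb10 (1.10) and Phlda2 (1.07) were higher, and of 29 proliferation genes 0 were apart, with a median of -0.12.

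**Figure D4:**
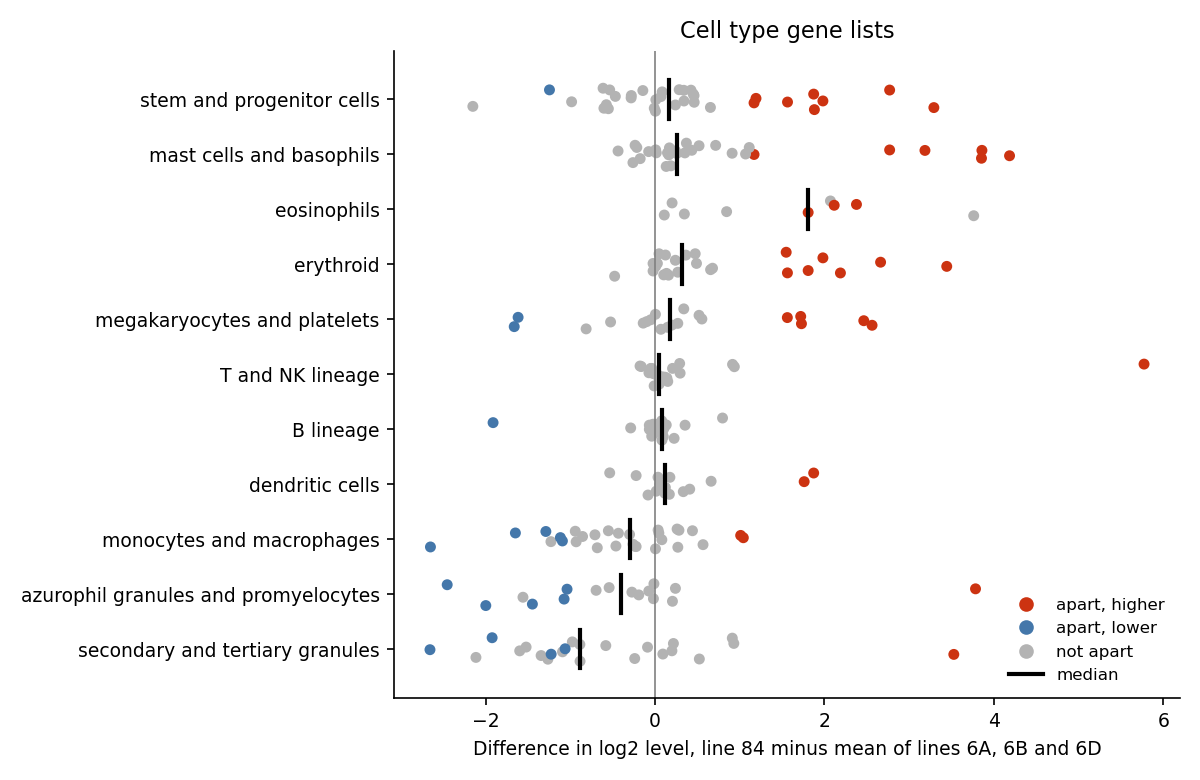
Difference in log2 level between line 84 and the mean of lines 6A, 6B and 6D (x axis) for each member of 11 cell type lists (y axis), in red where apart and higher, in blue where apart and lower, in grey otherwise, with the list median as a bar. The medians run from -0.89 for secondary and tertiary granules to 1.81 for eosinophils, and most lists hold a few members far from a median near 0.

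Genes apart were spread over the genome. Outside the Y chromosome their share ran from 2.35% on chromosome 17 to 6.51% on chromosome 12, against 4.33% of all genes. By the positions of assembly GRCm38.p6, 3 runs of 3 neighbouring measured genes moved one way. Whether this is more than scattered genes would give was not tested. Rhoj, Sgpp1 and Syne2 on chromosome 12 were lower, by differences of -6.01, -2.40 and -2.08. Gem, Cdh17 and Cibar1 on chromosome 4 were higher (4.27, 1.66 and 1.53), and so were Itih5, Sfmbt2 and Prkcq on chromosome 2 (1.70, 1.36 and 1.04). Median differences per chromosome ran from 0.01 to 0.06, and on the Y chromosome 3 of 8 genes were apart.

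The lines also differed in how far their rescued array lay from their knockout array. This difference is another contrast than the one between the line means, and it was tested with the interaction term of limma, with earlier results for these arrays known. The term is the rescued minus knockout difference in line 84 minus the mean of the same difference in the other 3 lines. Line 84 has 1 array per vector, so its spread was taken from the other lines, with 2 residual degrees of freedom. The p-values thus set 1 pair of arrays against the spread of 3 other pairs. Those 3 pairs are of lines that share the name stem PICALM6. The methods do not say whether these lines came from separate embryos. A gene near background in the other lines can hardly fall or vary there. For such a gene a small spread follows from its low level in those lines. The knockout array of line 84 was also the one farther from the other lines, with correlations of 0.970 to 0.974 against 0.983 to 0.985 for its rescued array. Within line 84, 495 probe sets differed at least 2-fold between the 2 arrays, against 39 to 116 in the other lines. At an adjusted p of 0.05, the term was above 0 for 251 probe sets (1.11%) and below 0 for 251 (1.11%). Without line 6A, 6B or 6D these counts fell to between 117 and 173 above 0 and between 141 and 160 below 0.

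Over genes, 154 had a higher (1.24%) and 155 a lower (1.25%) interaction term, 309 in all, of which 133 were also apart. For 72 genes higher in line 84 the term was below 0, and for 47 genes lower in line 84 it was above 0, so for 119 of the 133 the difference from the other lines was smaller between rescued than between knockout arrays. The opposite held for 11 higher and 3 lower genes. Over all 536 genes apart, 400 had the larger difference between knockout arrays.

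Most interferon effectors fell in the rescued array of line 84 relative to the other lines. Of 41 effectors the term passed the test for 29, all below 0, of 18 GTPases and Ifi200 genes for 10, of 17 sensors for 6 and of 19 class I genes for 8, all below 0, against 1.25% of all genes. Ifit1 fell by 3.30 between the arrays of line 84 and moved by -0.08 to 0.09 in the other lines (interaction -3.29, SE 0.11, limma adjusted p = 0.00415). Oasl2 had an interaction of -3.40 (SE 0.14, limma adjusted p = 0.00468), Rtp4 of -2.98 (limma adjusted p = 0.00482) and Usp18 of -3.71 (limma adjusted p = 0.0106). Irf7 fell as well (interaction -2.31, SE 0.11, limma adjusted p = 0.00496). Ifngr1, the interferon gamma receptor chain, was the receptor that passed, in the other direction (0.77, limma adjusted p = 0.0413). Ccl2, Ccl7 and Ccl12 had interactions of -3.22, -2.03 and -2.03. In every array of the other lines Ifit1 and Oasl2 lay below the 10th percentile of the array (4.43 to 4.46). For Rtp4, 15.4% to 23.4% of probe sets were dimmer there. The p-values of these genes are tied to that low level and are no support separate from the difference in level.

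A minority of granule genes passed the test, and those that passed rose in the rescued array of line 84 relative to the other lines. Of 16 azurophil and promyelocyte genes 5 passed, all above 0, of 9 eosinophil genes 3, of 29 mast cell and basophil genes 4 and of 23 secondary and tertiary granule genes 2, again all above 0, against 1.24% of all genes. Prg3 rose by 3.43 between the arrays of line 84 and by 0.02 to 0.18 in the other lines (interaction 3.35, limma adjusted p = 0.00415). Epx followed with 3.72 (SE 0.16, limma adjusted p = 0.00482), whereas Prg2, with 5.12 (SE 0.79), did not pass (limma adjusted p = 0.0535). Epx was also dim in the other lines, so the limit given for Ifit1 applies to it. Elane had 2.21 (limma adjusted p = 0.0118), Mgst1, a glutathione transferase, 2.50 (0.00415), S100a8 2.57 (0.0177) and Chil3 5.07 (0.0479). The endocytic lectin receptor Olr1 (2.86) and the lipid flippase Atp11a (2.69) also rose, and Arhgap6, a GTPase-activating protein, fell (-2.35).

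Among cholesterol synthesis genes, 4 of 18 passed, all above 0. Sc5d, a sterol desaturase, was at 9.84 and 11.02 in line 84 against 10.70 to 10.99 elsewhere (interaction 0.96, limma adjusted p = 0.0181). Mvd (0.83), Lss (0.69) and Dhcr7 (0.60) also passed. For Xist, Eif2s3y, Kdm5d, Uty, Hmga2, Perp, Rhoj and Hpgd the interaction lay between -0.39 and 0.18 and did not pass, and the 2 arrays of line 84 were within 0.3 of each other.

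**Figure D5:**
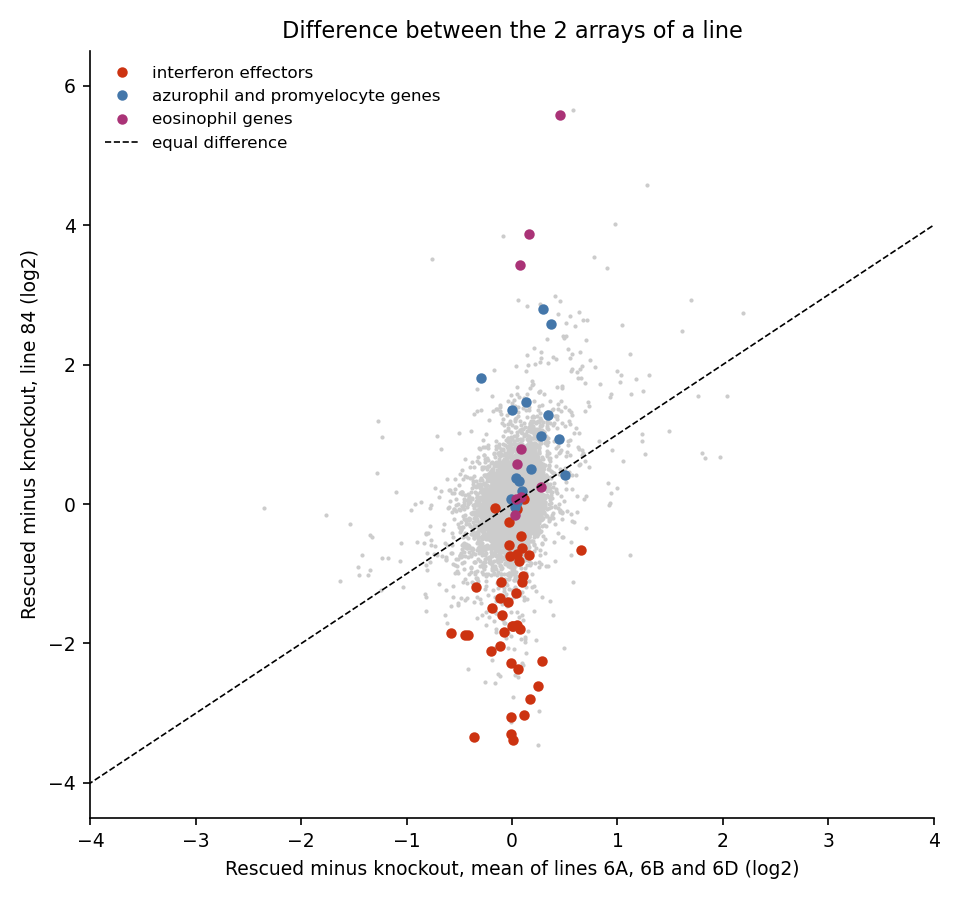
Rescued minus knockout difference in log2 level for each probe set with 1 gene symbol (grey), as the mean of lines 6A, 6B and 6D (x axis) against line 84 (y axis), with the genes of 3 lists coloured and the dashed line marking equal differences. Interferon effectors other than Ifitm2 lie below 0 in line 84, and most azurophil and eosinophil genes lie above the dashed line.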

How the data were processed

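Expression was measured on 8 Affymetrix mouse arrays. The authors normalized them by RMA, and the deposited values are log2 levels, used as deposited. The methods name the full mouse array and the labels its A version, which the table fits. No genome build for the probes is given in the sources used here. Of 22690 probe sets 64 controls were left out. Of the 22626 used, 20380 had 1 gene symbol in the platform annotation, 691 several and 1555 none, and only those with 1 symbol were named. All columns were mapped to samples (0 unmapped). Array medians were 7.32 to 7.35. Arrays give no molecule count, so their number limits the precision.

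Line 84 was compared with the other lines in limma 3.58.1 (R 4.3.3, statmod 1.5.0) with the vector as covariate, as a description. The interaction of line and vector was fitted with the line as a block and tested two-sided. Its p-values were adjusted by Benjamini-Hochberg over the 22626 probe sets. The SAM analysis of the methods addressed rescued against knockout cells and was not run here. Both arrays of each line share that line and so form a pair. As deviations from the mean of the 4 arrays with the same vector, the members of a pair correlated at 0.623 to 0.811, which includes the distance of line 84. Within the 3 other lines alone it was 0.356 to 0.545. In the fit with line 84 as a term, limma estimated a correlation within lines of -0.106. Nothing says that arrays of a line came from separate cultures. The fits were tested on simulated data.

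The members and 33 gene lists (903 entries, 748 measured) were chosen with earlier results of these data known. Named are the 15 largest differences in each direction, measured interferon ligands, receptors, kinases and transcription factors, up to 8 members of each other list, Xist and Y-linked genes, the 10 genes of smallest interaction p and the 5 most like the effectors. Further list members, Ptprc and the genes of neighbour runs were named after their values were seen. Picalm is not among the named probe sets and was not analysed here. Tables and plots were made in Python 3.11.15 with pandas 2.3.3, numpy 2.4.6 and matplotlib 3.10.9. Alternatives were each vector alone, leaving out each array or line, quantile normalization, median centring, leaving out the dimmest 40% of probe sets, folds of 1.5 and 4, other limma settings, the methods' t-test and the mean over probe sets of a gene.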

Additional observations from a re-analysis of the deposited data

Results flagged for a closer look

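Of the 30 genes with the largest differences, Il6 was the 1 set aside by the Dixon ratio. This measure divides the gap between an extreme array of the other lines and the next by their range. It can miss arrays that lie away together, as the arrays of line 6B did for Elavl2. The rescued array of line 6D was at 4.36, where the other 5 were at 3.70 to 3.90, and both arrays of line 84 were higher, at 6.67 and 8.91. Chance sets about 1 in 20 such groups aside, and over all 12393 genes 8.13% were set aside by the same measure.

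The rescued minus knockout difference of line 84 differed from that of the other lines most clearly in 10 genes, by the interaction term of limma. It was above 0 for Prg3 (3.35), Olr1 (2.86), Atp11a (2.69) and Mgst1 (2.50). It was below 0 for Oasl2 (-3.40), Ifit1 (-3.29), Ccl2 (-3.22), Slfn8 (-2.79), Arhgap6 (-2.35) and Oas3 (-2.26). The limma adjusted p was 0.00415, or 0.00468 for Oasl2, with 1 array per vector in line 84. Ifit1 and Oasl2 were near background in the other lines, where a small spread follows from the low level.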

How the results depend on the processing

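Directions held in most settings, while sizes moved with the vector. Without single arrays, probe sets apart numbered 358 to 586 higher and 320 to 609 lower, and limma counts were 1793 to 3757 higher and 1640 to 3357 lower. With all arrays limma counted 3798 (16.8%) and 3400 (15.03%) at an adjusted p of 0.05, which tests nothing because line 84 was chosen on these values. Knockout arrays alone gave 609 lower. A limit of 1.5-fold gave 870 higher and 916 lower, 4-fold 146 and 87, and leaving out dim probe sets 277 higher. Limma counts were 747 higher and 780 lower with rescued arrays alone, 2512 higher without line 6A and 2349 without 6B. With the line as a random replicate block they were 4220 and 3707, and by the methods' t-test 2901 and 2445 after Benjamini-Hochberg adjustment (4731 and 3933 before it).

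The interaction was fitted with the pairing by line as a block, and without that block it gave 246 above and 235 below 0. It gave 154 below without line 6A, 117 above and 160 below without 6B, 119 above and 141 below without 6D, 446 above without dim probe sets, and 926 above and 600 below with a variance trend and robust settings. Leaving out 1 array removes a pair, so it equals leaving out the line or, for line 84, gives no value. Unadjusted, 4480 probe sets had p under 0.05.

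Without single arrays, list medians ran from 0.65 to 2.07 for effectors, 0.25 to 1.73 for GTPases, 0.18 to 0.41 for mast cells, 0.44 to 2.16 for eosinophils, -1.37 to -0.28 for secondary granules, -0.85 to -0.15 for azurophil granules, -0.36 to -0.27 for monocytes and 0.22 to 0.32 for erythroid genes. With knockout arrays alone they were 2.07 for effectors, 1.73 for GTPases, 0.44 for eosinophils and -0.85 for azurophil granules. With rescued arrays alone they were 0.65, 0.25, 2.16 and -0.15, with -0.28 for secondary granules and 0.22 for erythroid genes, and the medians of interferon transcription factors and the p53 pathway reversed, to -0.028 and -0.030. Without single arrays these 2 medians ran from -0.028 to 0.29 and from -0.030 to 0.17, both at their lowest without the knockout array of line 84. Without dim probe sets the medians were 1.19 for GTPases, 2.38 for eosinophils, -0.46 for monocytes and 0.66 for erythroid genes. Averaging all probe sets of each gene gave 1.32 for effectors and 0.87 for GTPases. The cause of these shifts was not tested. Of 2331 other values for single genes, 1949 moved by less than the spread between arrays and 382 by more. Of 536 genes apart, 218 had several probe sets, and in 24 of these the probe sets differed in sign. The median difference of all probe sets was 0.00061 after quantile normalization and 0.025 after median centring, against 0.023 in the deposited values. Levels near background have no reliable order, and with 1 line the differences have no replicate line.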

Other observations

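Lin28a and Bace1 were chosen after their values were seen. Lin28a, an RNA-binding protein of embryonic and fetal cells, was at 4.29 and 4.90 in line 84 and at 6.69 to 8.48 in the other 6 arrays, a difference of -3.16 (SE 0.30), with a second probe set at -0.11. Bace1, a protease of membrane proteins, was at 10.73 and 10.03 in line 84. It also varied among the other lines, with 8.24 and 8.86 in line 6D and 5.78 to 6.17 in 6A and 6B.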
